A study of Mus musculus with 7 samples.

Results

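The nucleoplasmins and histone chaperones examined here are 9 mouse genes, picked by name with earlier results of these data known: the nucleoplasmin family members Npm1, Npm2 and Npm3, the histone carriers Nasp, Asf1a and Asf1b, the deposition subunits Chaf1a and Hira, and the histone mRNA-binding gene Slbp. Each name matched 1 of 25908 entries that had a value in every library. Poly(A) RNA of 10 oocytes per library was measured by Smart-seq2, a full-length cDNA method primed with oligo-dT, in 2 libraries of germinal vesicle (GV) oocytes, 3 libraries of metaphase II (MII) oocytes with DMSO and 2 libraries of MII oocytes with BYBX. Oocytes came from C57BL/6 females of 4 weeks, collected 44 h after pregnant mare serum gonadotropin, and MII oocytes were reached after 16 h of culture. BYBX is a fluorescent ligand that binds and stabilizes RNA G-quadruplexes (rG4s), stacked structures formed by runs of guanine, and DMSO is its solvent. The paper reports that fewer oocytes released the first polar body as the BYBX dose rose. The treated oocytes that did reach MII had abnormal spindles. Effects of the treatment and of incomplete maturation therefore cannot be told apart in these libraries. The labels call all oocytes control in genotype and give the GV oocytes no treatment, whereas the study's methods say that GV controls received DMSO. The BYBX dose of these libraries is not named in the Smart-seq2 methods, no batch is given per library, and nothing states whether libraries of a group came from separate females, so p-values measure only the spread between these libraries.

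Histone chaperones bind histones that are not on DNA, keep them soluble and hand them on to one another and to chromatin. NASP holds a reserve of H3 and H4, ASF1A and ASF1B pass H3-H4 dimers either to the CAF-1 complex, which assembles chromatin behind the replication fork, or to the HIRA complex, which deposits the variant H3.3 outside replication. NPM2 is the oocyte nucleoplasmin, a maternal-effect factor for nuclear and nucleolar organization, and the egg stores such proteins and their mRNAs for remodelling sperm chromatin after fertilization. SLBP binds the stem-loop that ends replication-dependent histone mRNAs and is needed for their processing and translation.

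The 3′ ends are shown because reverse transcription started from the poly(A) tail, so the values follow polyadenylated mRNA and not total mRNA. For each gene a single annotated protein-coding transcript was searched, for these ends and for the runs of G below. Other transcripts of a gene were not covered. The windows are 30 bases of the reference mm10 (GRCm38, GENCODE vM21 transcripts), 5′ to 3′ on the sense strand, and end with the poly(A) signal (AATAAA or ATTAAA within 40 bases of the annotated end) in capitals.
Npm2, 3′ UTR, chr14:70647316-70647345, minus strand: cccagcaagctcgcctagggccacAATAAA
Chaf1a, 3′ UTR, chr17:56070237-56070266, plus strand: agcggctcatgcacctacctgtaaATTAAA
Nasp, 3′ UTR, chr4:116601067-116601096, minus strand: attgtctgcagttttgtctataaaAATAAA
Slbp, 3′ UTR, chr5:33640076-33640105, minus strand: tttgtatggaatgataattgcaaaAATAAA
Asf1a, 3′ UTR, chr10:53609162-53609191, plus strand: attacccagttcatagattttaaaAATAAA
Asf1b, 3′ UTR, chr8:83970153-83970182, plus strand: attaaaagttttggttgtcttaagAATAAA
One of these signals was found in 8 of the 9 members, and in 77.7% of 8563 tested genes with a 3′ UTR of at least 50 bases. The letters TTTTAT, one form of the cytoplasmic polyadenylation element through which stored mRNAs gain a longer tail in maturing oocytes, were searched for with TTTTAAT on the sense strand in the last 100 bases. They occurred in Asf1b alone among the members, at chr8:83970147-83970152, directly before the printed window, and in 20.6% of the 8563 genes.

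Because BYBX binds rG4s, the stretches of the members with 4 runs of at least 3 G and 1 to 7 bases between runs are shown next, with the runs in capitals. Of the 9 members 2 held such a stretch in the spliced transcript searched, sense strand only, compared with 17.8% of 8747 tested genes. Both lay in the 3′ UTR.
Npm3, exon 6, chr19:45747953-45747969, minus strand: GGGGGtGGGaGGGaGGG
Hira, exon 25, chr16:18970233-18970260, plus strand: GGGGGGtGGGGtGGGacagaGGGGaGGG
With up to 12 bases between runs, 3 members held one, compared with 32.4% of genes, the added one being GGGGactcaGGGaaaggaatGGGtttGGG in the 3′ UTR of Chaf1a (chr17:56068482-56068510, plus strand). Hira then held another stretch of 40 bases, in the 5′ UTR (exon 1, chr16:18877367-18877406, plus strand), too long to be printed. The match is one of letters, and whether these stretches fold or bind BYBX was not tested.

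Levels are FPKM, fragments normalized to transcript length and library size, which the authors scaled to an added spike-in RNA. The scaled values summed to 402113 to 489569 per GV library, 109732 to 127254 per MII library with DMSO and 201482 to 246710 per BYBX-treated MII library. On the log2(FPKM + 1) scale used for every change given here, the median over 9202 tested entries was -1.83 for MII with DMSO minus GV, 0.84 for BYBX-treated minus DMSO MII and -0.99 for BYBX-treated MII minus GV. Fewer RNA molecules per oocyte and a different scaling factor cannot be told apart from these values, so each change was also computed after setting every library to the same summed FPKM and after centring every library on its median. All 12 oocyte markers reached 1 FPKM in GV and in BYBX-treated MII oocytes and 11 in MII with DMSO, their summed level running from 11704 to 14151, from 6145 to 7268 and from 2648 to 3377 FPKM, in that order. The 15 granulosa and cumulus markers summed to 7.25 to 14.7 FPKM in GV, 2.79 to 3.25 in BYBX-treated MII and 2.08 to 2.65 in MII with DMSO, and neither the erythrocyte nor the macrophage markers summed to more than 1.78 in any library. The granulosa sum was therefore lower in both MII groups than in GV, as were the oocyte marker sum and the library totals on this scale. The part of granulosa RNA in the results was not tested.

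From GV to MII with DMSO, 7 of the 8 members tested fell, namely Npm2, Chaf1a, Nasp, Asf1a, Npm1, Asf1b and Slbp, although for the last 4 of these the direction turned under both other scalings. Across all tested entries 88.3% fell, so the count is near the background. The sizes spanned a wide range. Npm2 changed by -4.26 and Chaf1a by -4.15, with 8.47% and 9.23% of entries below them, whereas Slbp changed by -0.67, with 85.4% of entries below it, a change smaller than the median of all entries. The 8 tests are those of limma with Benjamini-Hochberg adjustment over all 9202 entries, and Hira was below the minimum level of 1 FPKM and was not tested.

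**Figure D1:**
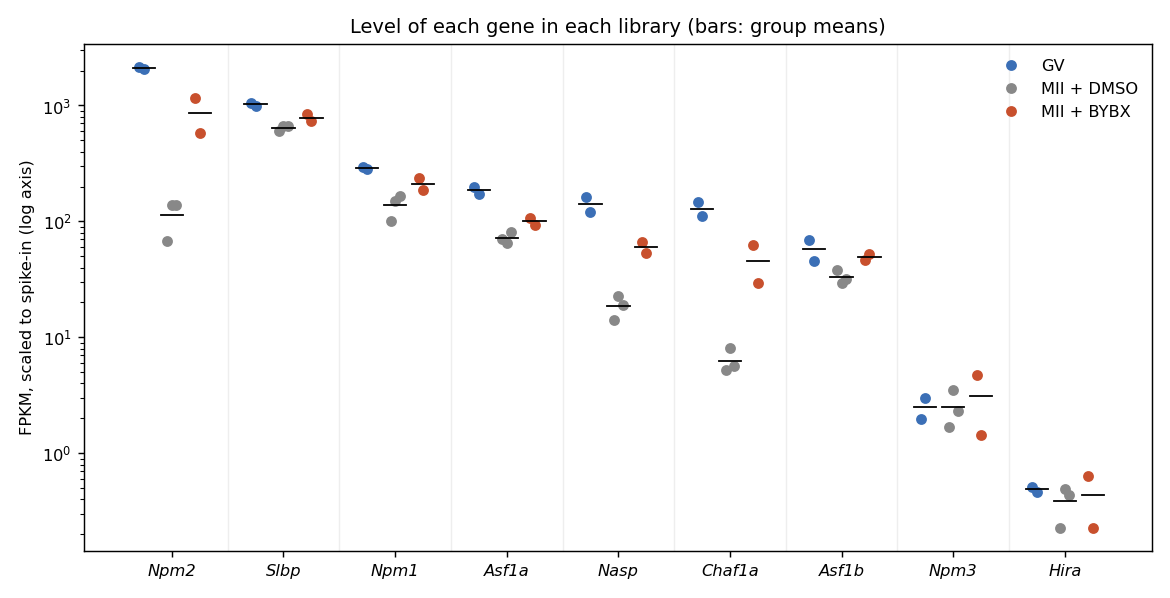
FPKM (log axis) of each of the 9 genes in each of the 7 libraries, 1 point a library, grouped as GV, MII with DMSO and MII with BYBX. Npm2 stood at 2145 and 2065 FPKM in GV and at 67.9 to 138 in MII with DMSO, and Hira stayed under 1 FPKM throughout; the values are on the deposited scale, and the order of GV and MII turned for Slbp, Npm1, Asf1a and Asf1b when libraries were set to the same total or centred.

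Npm2, the oocyte nucleoplasmin, was the most abundant of the 9 in GV oocytes. It stood at 2145 and 2065 FPKM in the 2 GV libraries, at 67.9, 138 and 138 in the 3 MII libraries with DMSO, and at 1151 and 582 in the 2 BYBX-treated MII libraries. The 3 groups did not overlap, and the 2 treated libraries lay further apart than the GV libraries. Npm2 fell by 4.26 ± 0.35 (SE) from GV to MII with DMSO (limma, adjusted p = 4.9e-08). It was higher by 2.90 ± 0.35 in BYBX-treated than in DMSO MII oocytes (adjusted p = 8.4e-06) and lower by a change of -1.36 ± 0.38 than in GV (limma, adjusted p = 0.0062). The first pair of differences kept direction and call under both other scalings, at -2.38 and -1.96 for maturation and 2.01 and 1.62 for BYBX. The difference of treated MII from GV did not pass the test under either, at -0.37 and -0.34.

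Ranked among all entries of its library, Npm2 took ranks 15 and 10 in GV, 244, 118 and 122 in MII with DMSO, and 22 and 41 with BYBX. Slbp, whose level per oocyte moved less, went the other way, from ranks 52 and 48 in GV to 24, 24 and 23 in MII with DMSO, with 28 in both treated libraries. Within a library the FPKM ratio of Npm2 to Slbp was 2.04 and 2.08 in GV, 0.113, 0.208 and 0.209 in MII with DMSO, and 1.36 and 0.801 with BYBX. No scaling factor enters such a ratio or rank. The Npm2 mRNA was thus the more abundant of these in GV and Slbp in MII with DMSO, while the 2 treated libraries fell on either side.

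**Figure D2:**
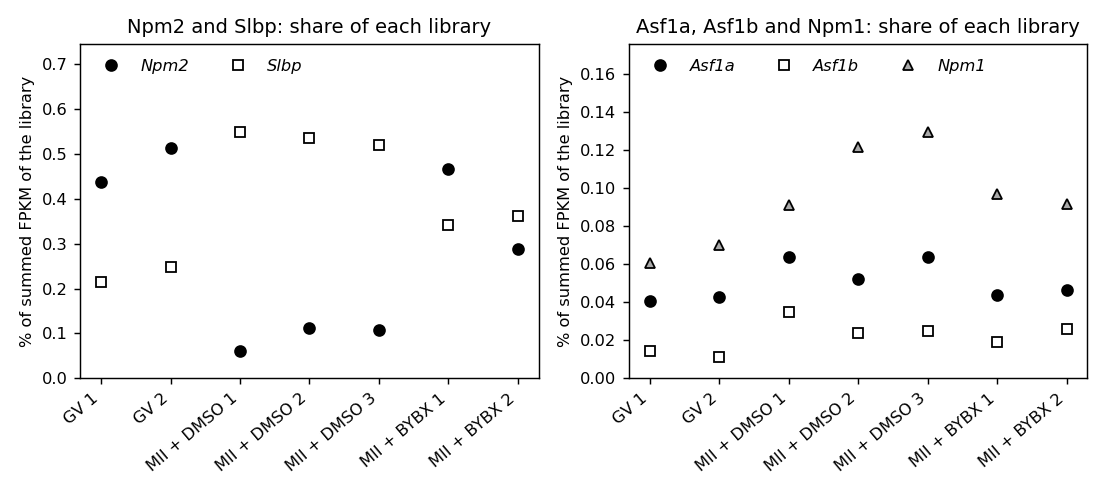
Share of the summed FPKM of the library (%) taken by Npm2 and Slbp (left) and by Asf1a, Asf1b and Npm1 (right), 1 point for each of the 7 libraries. Npm2 went from 0.438 to 0.513% in GV to 0.0619 to 0.112% in MII with DMSO, whereas Slbp went from 0.215 to 0.247% to 0.521 to 0.549%, the reverse of its order on the deposited scale.

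Npm1, or nucleophosmin, the broadly expressed family member of the nucleolus, had far less of a range, and its level is uncertain where reads match its processed copies. It stood at 296 and 281 FPKM in GV, at 100, 150 and 165 in MII with DMSO and at 239 and 185 with BYBX. The groups did not overlap on this scale. Npm1 fell by 1.09 ± 0.27 during maturation (limma, adjusted p = 0.0019), a direction that turned to 0.79 at the same total and 1.22 after centring. The 0.63 difference of BYBX-treated from DMSO MII (95% interval 0.05 to 1.22, limma adjusted p = 0.055) did not pass after adjustment and turned to -0.26 and -0.65 under the other scalings.

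Npm3, the remaining family member, was near the floor of the tested range. It stood at 1.98 and 3.02 FPKM in GV, at 1.67, 3.53 and 2.33 in MII with DMSO and at 4.78 and 1.45 with BYBX, and all groups overlapped. Its changes were -0.02, 0.13 and 0.12 in the 3 comparisons, none past the test (limma, adjusted p = 0.97, 0.72 and 0.78). The intervals were wide, from -0.73 to 0.70 for maturation and from -0.58 to 0.85 for BYBX, so that a change within them was not detectable with these libraries. The changes turned to 1.31 and 2.29 for maturation and to -0.57 and -1.14 for BYBX under the other scalings. Without the lower of the treated libraries, the second, the difference with BYBX was 0.75 (adjusted p = 0.046), and without the first it was -0.48.

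Within a library the ratio of Npm2 to Npm1 does not depend on the scaling factor except through the pseudocount of 1. It was 7.25 and 7.34 in GV, 0.678, 0.918 and 0.839 in MII with DMSO and 4.82 and 3.15 with BYBX. The 2 mRNAs thus stood at similar levels per length in MII with DMSO and several-fold apart in the other groups. The log2 ratio differed by -3.17 between MII with DMSO and GV and by 2.27 between BYBX-treated and DMSO MII, each with an exact two-sided permutation p of 0.1, the smallest that 2 libraries against 3 allow (0.18 after adjustment over 9 ratio comparisons). Between treated MII and GV it differed by -0.91 (exact permutation p = 0.33, again the smallest possible, 0.375 adjusted). Against Npm3 the log2 ratio of Npm2 differed by -4.24, 2.76 and -1.48 in the same order, with the same p-values.

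Nasp, the carrier of soluble H3 and H4, had the largest fall after Npm2 and Chaf1a among the members. It stood at 161 and 121 FPKM in GV, at 14.2, 22.6 and 19.1 in MII with DMSO and at 66.8 and 53.7 with BYBX, without overlap. Nasp fell by 2.86 ± 0.28 during maturation (limma, adjusted p = 2.7e-07), was higher with BYBX than with DMSO by 1.66 ± 0.28 (adjusted p = 0.00015) and lower than in GV by a change of -1.20 ± 0.30 (adjusted p = 0.0032). After centring, the maturation change was -0.56 (limma, adjusted p = 0.032) and the BYBX difference 0.38 (adjusted p = 0.13), the latter no longer past the test. The difference of treated MII from GV passed under neither other scaling, at -0.22 at the same total and -0.18 after centring (limma, adjusted p = 0.46 and 0.57).

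The ASF1 paralogues, encoded by separate genes, hand H3-H4 on to HIRA and to CAF-1. Asf1a stood at 199 and 173 FPKM in GV, at 70.2, 64.6 and 81.1 in MII with DMSO and at 108 and 94.0 with BYBX. Asf1b stood at 69.2 and 45.7 FPKM in GV, at 38.1, 29.4 and 31.7 in MII with DMSO and at 46.6 and 52.0 with BYBX. The groups of Asf1a did not overlap, and the treated libraries of Asf1b lay within the GV range. From GV to MII with DMSO, Asf1a fell by 1.36 ± 0.24 (limma, adjusted p = 0.00013) and Asf1b by 0.76 ± 0.27 (adjusted p = 0.016), and both turned under the other scalings, to 0.51 and 1.09 at the same total. The call of Asf1b was lost without the first GV library, at -0.46 (limma, adjusted p = 0.15), without the second MII library with DMSO, at -0.68 (adjusted p = 0.059), and in the fit with a block for the replicate number, at -0.73.

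The differences of BYBX-treated from DMSO MII oocytes were 0.48 for Asf1a (95% interval -0.04 to 1.01) and 0.57 for Asf1b (-0.0049 to 1.14). Neither passed (limma, adjusted p = 0.096 and 0.075), and both turned under the other scalings. Compared with GV, Asf1a was lower in treated MII by a change of -0.88 ± 0.27 (limma, adjusted p = 0.01), which turned to 0.11 at the same total, and Asf1b stood at -0.19 ± 0.29 (adjusted p = 0.57). Asf1a was the more abundant paralogue in every library. The ratio of Asf1a to Asf1b was 2.88 and 3.78 in GV, 1.84, 2.19 and 2.56 in MII with DMSO and 2.31 and 1.81 with BYBX. The log2 ratio differed by -0.60 between MII with DMSO and GV (exact permutation p = 0.1, 0.18 adjusted), by -0.08 between the MII groups (exact permutation p = 0.7) and by -0.69 between treated MII and GV (exact permutation p = 0.33).

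**Figure D3:**
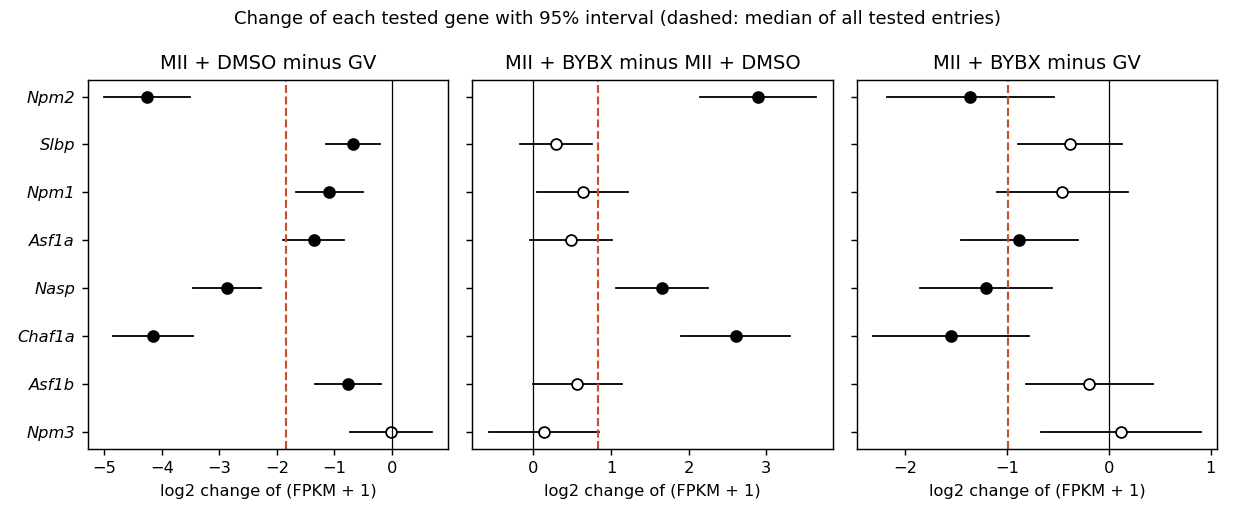
Log2 change, on the log2(FPKM + 1) scale, of the 8 tested genes in each of the 3 comparisons, with 95% intervals; the dashed line marks the median of all 9202 tested entries. Npm2, Chaf1a and Nasp lay beyond the median in MII with DMSO minus GV and in BYBX-treated minus DMSO MII. In the same comparisons Slbp, Npm1, Asf1a, Asf1b and Npm3 lay nearer to 0 than the median. Those 5 genes changed direction there under both other scalings. Filled points passed the test.

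Chaf1a encodes the large subunit of CAF-1, the chaperone of replication-coupled assembly. It stood at 146 and 111 FPKM in GV, at 5.21, 8.09 and 5.63 in MII with DMSO and at 62.3 and 29.3 with BYBX. The groups did not overlap, and the 2 treated libraries differed from each other in the same order as for Npm2, which is also that of their summed FPKM (246710 and 201482). Chaf1a fell by 4.15 ± 0.32 during maturation (limma, adjusted p = 3.2e-08), was higher with BYBX than with DMSO by 2.60 ± 0.32 (adjusted p = 1.2e-05) and lower than in GV by a change of -1.55 ± 0.35 (adjusted p = 0.0018). Both of the first 2 changes kept direction and call at the same total, at -2.38 and 1.81, and after centring, at -1.85 and 1.33, whereas the third did not pass, at -0.57 and -0.52.

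The other CAF-1 subunits were not alike. Chaf1b, the middle subunit, had means of 16.3 ± 6.01 (SD, n = 2), 0.0412 ± 0.0338 (n = 3) and 3.25 ± 0.214 FPKM (n = 2) in GV, MII with DMSO and treated MII, a change of -4.01 ± 0.23 during maturation (limma, adjusted p = 2e-09) that held in direction and call under both other scalings. Its values in MII with DMSO lay near 0, where the pseudocount of 1 limits the size of the change. The FPKM ratio of Chaf1a to Chaf1b was 7.11 and 9.21 in GV and 67.8, 832 and 152 in MII with DMSO. With BYBX it was 20.1 and 8.63. The ratios in MII with DMSO divide by Chaf1b values near 0. With the pseudocount of 1 added, the log2 ratio was 2.77 and 3.10 in GV and 2.53, 3.17 and 2.68 in MII with DMSO. The GV values thus lay within the range of MII with DMSO, and the BYBX values were 3.95 and 2.79. Rbbp4, the small histone-binding subunit, changed by -0.90 ± 0.27 (limma, adjusted p = 0.0064) and its paralogue Rbbp7, found in other chromatin complexes, by -0.80 ± 0.26 (adjusted p = 0.012), both turning under the other scalings, to 0.84 and 1.08 at the same total. With BYBX, Chaf1b was 2.03 ± 0.23 higher than with DMSO (limma, adjusted p = 5.9e-06), while Rbbp4 and Rbbp7 differed by 0.52 and 0.44, not past the test (adjusted p = 0.1 and 0.16), and passed as lower after centring, at -0.76 and -0.84 (adjusted p = 0.013 and 0.014).

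Hira, the H3.3 chaperone of the replication-independent route, was listed at 0.511 and 0.468 FPKM in GV, at 0.227, 0.495 and 0.435 in MII with DMSO and at 0.642 and 0.228 with BYBX. All groups overlapped, and no test was made at this level. The genes of its complex partners were higher per length. Ubn1 had means of 28.6 ± 1.51 (SD, n = 2), 17.2 ± 5.51 (n = 3) and 26.2 ± 11.7 FPKM (n = 2) and changed by -0.76 ± 0.33 during maturation (limma, adjusted p = 0.044), which turned to 1.05 at the same total. Cabin1 changed by -0.22 and Ubn2 by -0.13, neither past the test on the deposited scale (limma, adjusted p = 0.39 and 0.68), and both turned and passed under the others, at 1.44 and 1.33 at the same total (adjusted p = 9.9e-05 and 0.002). With BYBX none of the 3 passed, the differences being 0.56, 0.43 and 0.10 (limma, adjusted p = 0.15, 0.13 and 0.76) on the deposited scale, while after centring Cabin1 and Ubn2 passed as lower, at -0.85 and -1.18 (adjusted p = 0.0032 and 0.006). Daxx, the chaperone of the other H3.3 route, fell by 1.62 ± 0.29 (limma, adjusted p = 0.00013), which turned to 0.15 at the same total, and was 1.18 ± 0.29 higher with BYBX than with DMSO (adjusted p = 0.0028), which turned to -0.10 after centring. Its partner Atrx differed by -0.04 with BYBX (limma, adjusted p = 0.91) on the deposited scale and passed as lower under the others, at -0.88 and -1.32 (adjusted p = 0.039 and 0.0056).

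Of 22 further chaperones and chaperone partners, 18 fell from GV to MII with DMSO, 12 were higher with BYBX than with DMSO and 12 were lower in treated MII than in GV, with 0 calls in the opposite direction at these tests, where 88.3%, 65.2% and 69.2% of all entries were called. Their median changes were -1.35, 0.67 and -0.76, each nearer to 0 than the medians of all entries. At the same total, 9 fell and 10 rose during maturation (49.5% and 23.3% of all entries), and after centring 3 fell and 13 rose (26.7% and 48.8%). With BYBX, 5 were higher and 2 lower when totals were equal (39.9% and 8.22%), and 3 were higher and 12 lower after centring (18.4% and 43.9%), so the direction of the list as a whole rests on the scaling. Sart3, a histone chaperone also known for recycling spliceosomal RNAs, fell the most of them, by 4.16 ± 0.31 (limma, adjusted p = 2e-08), and had the largest difference with BYBX, 2.51 ± 0.31 (adjusted p = 1.1e-05). Dnajc9, a heat-shock co-chaperone for H3 and H4, followed with a difference of 2.24 ± 0.30 (limma, adjusted p = 2.3e-05). These rankings hold for the log2(FPKM + 1) scale only, where the pseudocount of 1 limits the change of genes near 0. Chaf1b was such a gene, with a mean of 0.0412 FPKM in MII with DMSO. Sart3 and Dnajc9 kept direction and call in both comparisons under the other scalings. Nap1l1 and Nap1l4, paralogous carriers of H2A and H2B, changed unlike each other during maturation, by -0.39 (limma, adjusted p = 0.19) and by -2.40 (adjusted p = 1.7e-06), or 1.45 and -0.59 at the same total, though the difference between the genes was not tested. Supt16 and Ssrp1, the subunits of FACT, fell by 2.32 and 1.16 and were higher by 1.21 and 0.73 with BYBX (limma, adjusted p = 0.0012 and 0.031 for the latter comparison) on the deposited scale, while Ssrp1 turned under the other scalings and Supt16 was at -0.02 and -0.07 after centring.

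**Figure D4:**
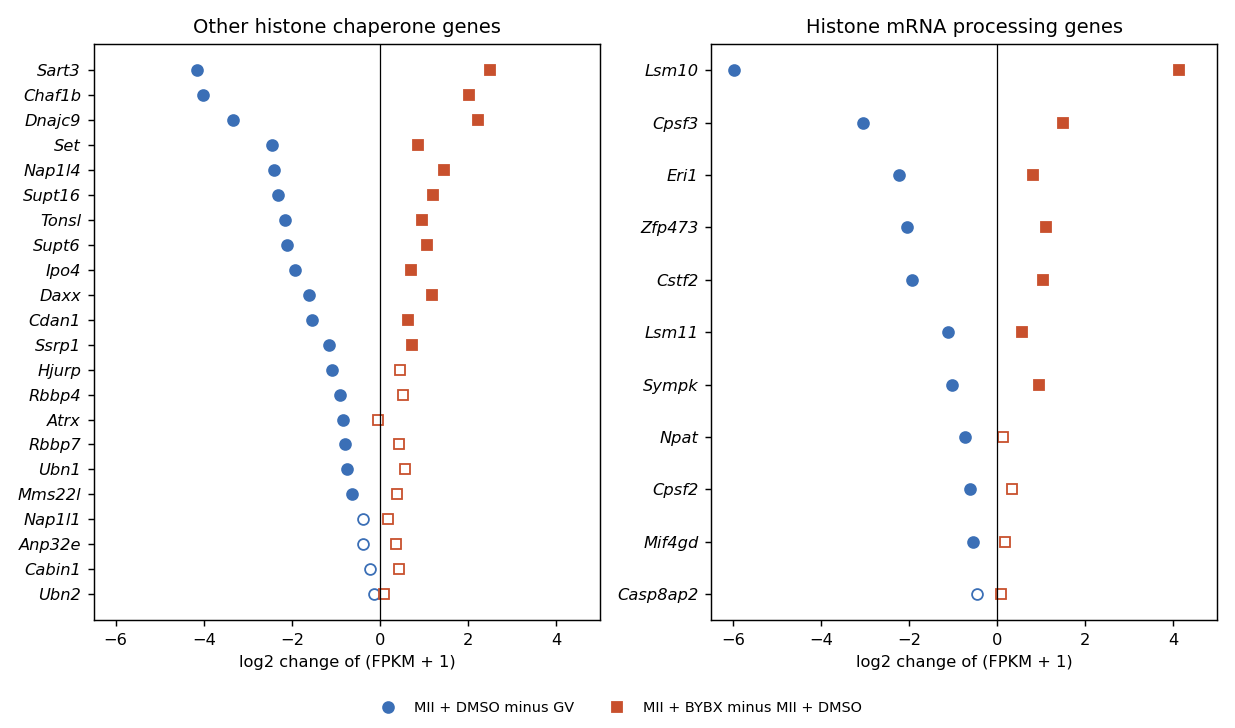
Log2 change on the deposited log2(FPKM + 1) scale (x axis) of 22 other chaperone genes (left) and 11 histone mRNA processing genes (right), with circles for MII with DMSO minus GV and squares for BYBX-treated minus DMSO MII, filled where the test passed. Both comparisons contain the same 3 DMSO libraries; Lsm10 lay farthest out at -5.98 and 4.13, and many of the smaller changes turned under the other scalings.

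Slbp was the second most abundant member in GV and the most abundant in MII with DMSO. It stood at 1052 and 994 FPKM in GV, at 603, 663 and 662 in MII with DMSO and at 845 and 727 with BYBX. The groups did not overlap, and the spread within each was narrow. On the deposited scale Slbp fell by 0.67 ± 0.22 (limma, adjusted p = 0.01), a direction that turned to 1.21 at the same total and 1.63 after centring, both past the test. The difference of treated from DMSO MII was 0.29 (95% interval -0.18 to 0.75, limma adjusted p = 0.25), turning to -0.61 and -0.99, and that of treated MII from GV was -0.38 (adjusted p = 0.16), turning to 0.61 and 0.64.

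Among 11 other genes of histone mRNA transcription and processing, 10 fell during maturation, 7 were higher with BYBX than with DMSO and 6 were lower in treated MII than in GV, with 0 in the opposite direction. Over all entries the shares were 88.3%, 65.2% and 69.2%. The medians of the 11 were -1.11, 0.81 and -0.60, beside -1.83, 0.84 and -0.99 over all entries. At the same total 3 fell and 4 rose during maturation (49.5% and 23.3% of all entries), and 2 were higher and 2 lower with BYBX (39.9% and 8.22%). After centring 2 fell and 6 rose (26.7% and 48.8%), and 1 was higher and 5 lower (18.4% and 43.9%). Lsm10, a ring protein of the U7 small nuclear ribonucleoprotein that cleaves histone pre-mRNA, had means of 263 ± 1.69 (SD, n = 2), 3.19 ± 0.424 (n = 3) and 72.9 ± 16.6 FPKM (n = 2). It fell by 5.98 ± 0.25 (limma, adjusted p = 2.9e-10), the largest fall in the lists on the log2(FPKM + 1) scale, and was 4.13 ± 0.25 higher with BYBX than with DMSO (adjusted p = 4.4e-08), in the same directions and past the test under both other scalings. Mif4gd, which links SLBP to translation, had smaller changes, a change of -0.55 ± 0.23 (limma, adjusted p = 0.039) that turned to 1.28 at the same total and a difference of 0.18 ± 0.23 with BYBX (adjusted p = 0.5) that turned to -0.69 (adjusted p = 0.013). Casp8ap2, a nuclear factor of histone gene expression, changed by -0.46 and 0.09, neither past the test on the deposited scale (limma, adjusted p = 0.091 and 0.75), and passed in the opposite directions under the others, at 1.33 and -0.77 at the same total (adjusted p = 0.00043 and 0.018).

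Between BYBX-treated and DMSO MII oocytes, 3 of the 8 tested members were higher, Npm2, Chaf1a and Nasp, compared with 65.2% of all entries, and 0 were lower, compared with 0.0326%. Between treated MII and GV, 4 of 8 were lower, Chaf1a, Npm2, Nasp and Asf1a, compared with 69.2%, and 0 were higher, compared with 0.315%. Without the first GV library, or without the second treated library, 2 members passed in place of 4. In both comparisons the members called were fewer, as a share, than the background. Counted by non-overlap of the libraries, 7 members were lower after maturation with DMSO (92.5% of all tested entries), 7 were higher in treated than in DMSO MII (79% of entries) and 6 were lower in treated MII than in GV (82.3% of entries).

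Scaling divided the 8 members into those whose direction held and those whose direction did not. At the same total FPKM, 3 fell (Npm2, Chaf1a and Nasp) and 5 rose during maturation, where 49.5% of all entries fell and 23.3% rose. After centring the split was again 3 and 5, where 26.7% fell and 48.8% rose. For BYBX against DMSO, 3 members passed as higher and 1 as lower when totals were equal, where 39.9% of entries were higher and 8.22% lower. After centring, 2 were higher (Npm2 and Chaf1a) and 5 lower, where 18.4% of entries were higher and 43.9% lower. For treated MII against GV, 1 member was higher when totals were equal (5.3% of entries higher, 13.3% lower) and 2 were higher after centring (15.2% higher, 13.6% lower). The direction of Slbp, Npm1, Asf1a and Asf1b per oocyte therefore rests on the spike-in factors of the study, which could not be recomputed. For Npm3 the maturation change on the deposited scale was -0.02 (limma, adjusted p = 0.97). Its sign also turned with the scale unchanged, to 0.16 without the first MII library with DMSO.

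**Figure D5:**
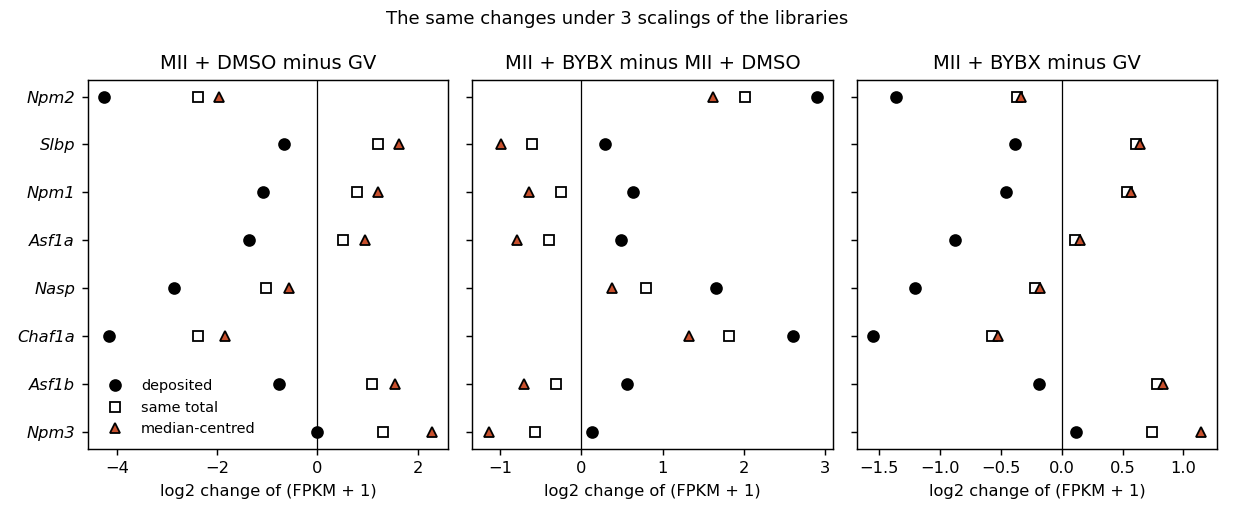
Log2 change of the 8 tested genes in the 3 comparisons under the deposited scale, the same total FPKM per library and median centring, 1 symbol a scaling. Npm2, Chaf1a and Nasp kept the sign of their change in MII with DMSO minus GV and in BYBX-treated minus DMSO MII, and the other 5 genes crossed 0.

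The position of treated MII oocytes between the other groups can be expressed as the difference of treated from DMSO MII divided by that of GV from DMSO MII, on FPKM means. It is a description without a test, since both terms hold the DMSO libraries. It applies to the deposited scale only, as Asf1b, Npm1, Slbp and Asf1a rose from GV to MII with DMSO under both other scalings. The change of Asf1b over which its value is taken was also nearer to 0 without the first GV library, at -0.46. Its median over the 8127 entries that fell was 0.288. Asf1b had 0.664, with the 2 treated libraries at 0.552 and 0.776, and Npm1 had 0.490, with 0.310 and 0.670. Npm2 had 0.378 (0.235 and 0.521), Slbp 0.377 (0.223 and 0.532) and Nasp 0.341 (0.287 and 0.394). Chaf1a had 0.324 (0.188 and 0.459) and Asf1a 0.253 (0.193 and 0.313). Both treated libraries lay above the median for Asf1b and Npm1, and they lay on either side of it for the other 5 members.

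The tested genes with the profile most like 7 of the members over the 7 libraries were found by the root-mean-square difference of centred log2(FPKM + 1). For Npm2 they were Cenps, a centromere and DNA repair protein gene, at 0.07, and Ndufb3, of respiratory complex I, at 0.11. For Chaf1a they were Sart3 at 0.10 and Akt1s1 at 0.11, for Nasp Ddx18 and Snx8, and for Npm1 Gpat4 and Ino80. Asf1a was nearest to Zmiz1 and Ttc12, Asf1b to Fpgs and Blcap, and Npm3 to 2310022B05Rik and Syt7. The 2 treated libraries of Cenps, at 216 and 99.9 FPKM, stood in the same order as those of Npm2, the first above the second. Cenps was selected for its likeness to Npm2 over these same libraries, so the shared order is no separate result. The first treated library also had the larger summed FPKM, 246710 against 201482.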

How the data were processed

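The 7 Smart-seq2 libraries were grouped by their sample labels. The authors trimmed reads (Trim Galore 0.6.7), aligned them to mm10 (HISAT2 2.2.1), computed FPKM on UCSC gene models (Cufflinks 2.2.1) and scaled them to ERCC RNA and to the GV samples of each batch; these FPKM were deposited. The factors are not stated, and with 0 ERCC entries listed they could not be recomputed. Uniquely mapped reads were used, so reads shared with Npm1, Rbbp4 or other near-identical copies could have been lost. Depth is unknown, and precision is that of 2 or 3 libraries a group.

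Of 25912 entries, 4 had a missing value; the 9202 whose 3 group means averaged 1 FPKM or more were fitted as log2(FPKM + 1) in limma 3.58.1 (R 4.3.3; intensity trend, 3 group means, 4 residual degrees of freedom), with Benjamini-Hochberg adjustment and a threshold of 0.05. The step was tested on simulated data in which few entries changed and whole libraries did not shift, a setting unlike these data, where most entries fell. Ratios used exact two-sided permutation tests (scipy 1.17.1). Fold changes on this scale understate those of low genes. From the gene lists, the genes with the largest and smallest changes and those of at least 20 FPKM in GV were eligible for naming, with the 2 nearest profiles of each tested member (those of Slbp are not reported here); Chaf1b, Rbbp4, Ubn2 and Cabin1 were named as complex partners. Members and lists were chosen with earlier results of these data known. Alternatives were another pseudocount, other filters, rescaling, centring, a replicate block, no trend, a minimum of 2-fold and leaving out each library.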

Additional observations from a re-analysis of the deposited data

How the results depend on the processing

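Both rescalings changed the counts of called members. At the same total FPKM and after centring, 8 and 8 members passed for MII with DMSO minus GV, 4 and 7 for BYBX-treated minus DMSO MII, and 1 and 2 for treated MII minus GV. Of all entries, 49.5% fell and 23.3% rose at the same total in the first comparison, and 26.7% and 48.8% after centring. For the second, 8.22% were lower and 39.9% higher, then 43.9% and 18.4%. For the third, 13.3% were lower and 5.3% higher, then 13.6% and 15.2%. With equal totals the log2 changes that turned were, for MII with DMSO minus GV, Npm1 0.79, Npm3 1.31, Asf1a 0.51, Asf1b 1.09 and Slbp 1.21; for treated minus DMSO MII, Npm1 -0.26, Npm3 -0.57, Asf1a -0.40, Asf1b -0.31 and Slbp -0.61; and for treated MII minus GV, Npm1 0.53, Asf1a 0.11, Asf1b 0.78 and Slbp 0.61. After centring they were, in the same order, 1.22, 2.29, 0.94, 1.55 and 1.63, then -0.65, -1.14, -0.79, -0.71 and -0.99, then 0.57, 0.15, 0.84 and 0.64. The scaling alone differs in these values. At the same total the Npm2 to Npm3 ratio moved to -3.69 for MII with DMSO minus GV and to -1.11 for treated MII against GV, through the pseudocount of 1 beside the low Npm3 values.

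Leaving out each library gave 6 to 7 members for MII with DMSO minus GV, 3 to 4 for treated minus DMSO MII and 2 to 4 for treated MII minus GV. Over the same fits Npm3 ranged from -0.23 to 0.20, from -0.48 to 0.75 and from -0.50 to 0.74, and Asf1b in treated MII minus GV from -0.48 to 0.10. The fit in which a group keeps 1 library assumes that it varies like the others. In treated MII minus GV the call of Npm2 was lost without either GV library (limma, adjusted p = 0.079 and 0.055), without the second treated library (adjusted p = 0.075) and without a level filter, and that of Asf1a without the first GV library (adjusted p = 0.052) and without the second treated library (adjusted p = 0.071); the cause was not tested. The treated minus DMSO difference passed without the intensity trend and without the third DMSO library for Npm1, and without either GV library for Asf1b. Replicate numbers are shared by the groups, and correlations of same-numbered deviations from the group means ran from -0.60 to 0.49. In a group of 2 libraries these deviations mirror each other. The correlations therefore cannot tell whether same-numbered libraries share a batch or an origin. With the replicate block 6, 3 and 4 members passed, Asf1b was at -0.73 in MII with DMSO minus GV, no longer past the test, and Npm3 at 0.0061. Without a pseudocount, an alternative chosen after seeing the data, the 3 ratios kept their directions.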

Other observations

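Histones that these chaperones carry were measured as 6 variant and linker genes, through their polyadenylated mRNA only. During maturation 5 fell, 4 were higher with BYBX than with DMSO and 2 were lower in treated MII than in GV, where 88.3%, 65.2% and 69.2% of all entries were called. The medians were -1.61, 1.07 and -0.64 on the log2(FPKM + 1) scale, beside -1.83, 0.84 and -0.99 over all entries. At the same total 1 fell and 2 rose during maturation (49.5% and 23.3% of all entries). After centring 1 fell and 3 rose (26.7% and 48.8%). With BYBX 1 was higher and 2 were lower under each of these scalings. The matching shares of all entries for BYBX were 39.9% and 8.22% with equal totals, then 18.4% and 43.9% after centring. H1f8, the oocyte linker histone, had means of 2784 ± 255 (SD, n = 2), 2040 ± 346 (n = 3) and 2526 ± 413 FPKM (n = 2) in GV, MII with DMSO and treated MII, and its change of -0.46 during maturation did not pass on the deposited scale (limma, adjusted p = 0.067) and turned and passed under the others, at 1.43 and 1.84 (adjusted p = 2.6e-05 and 1.3e-05). H2ax, the DNA damage variant of H2A, had means of 206 ± 32.9, 9.0 ± 2.19 and 52.5 ± 6.94 FPKM with the same numbers of libraries, a change of -4.39 ± 0.27 during maturation (limma, adjusted p = 3.4e-09) and a difference of 2.44 ± 0.27 with BYBX (adjusted p = 4.2e-06), both holding under the other scalings. H3f3a and H3f3b encode the same H3.3 protein from separate genes. H3f3a fell by 2.09 ± 0.28 and was 1.38 ± 0.28 higher with BYBX (limma, adjusted p = 7.7e-06 and 0.00072), neither past the test under the other scalings, whereas H3f3b fell by 0.81 ± 0.23 (adjusted p = 0.0042), which turned to 1.07 at the same total, and differed by 0.25 ± 0.23 with BYBX (adjusted p = 0.34), which turned to -0.64 at the same total (adjusted p = 0.0072). The difference between the H3.3 genes was not tested.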
